A study of Mus musculus with 6 samples.

Results

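The uroplakins are the membrane proteins of the urothelial plaques, and their RNA was read on 9 probe sets of an expression array in embryonic mouse bladder. The members were all probe sets whose platform gene symbol is Upk1a, Upk1b, Upk2, Upk3a or Upk3b. They made up 9 of 45037 probe sets, with 1 each for Upk1a, Upk2 and Upk3a, 2 for Upk3b and 4 for Upk1b. All 9 passed the filter on dim signals described with the processing, and 31526 probe sets were tested in all. Bladders of Get1 -/- embryos (null, 3 arrays numbered 1 to 3) were compared with bladders of Get1 +/- embryos (heterozygous, 3 arrays numbered 4 to 6), all at embryonic day 18.5. Get1, also called Grhl3, encodes a transcription factor of the grainyhead-like family that acts in epithelia facing a lumen or the outside. The heterozygous controls carry 1 mutant allele, and no wild-type bladder was analysed here. The sources used here give neither the strain nor the design of the allele, nor do they say how many bladders went into a sample, so p-values measure only the spread between these samples.

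Uroplakins cover the luminal face of umbrella cells, the outermost cells of the bladder lining, in rigid plaques that form part of the barrier to urine. Uroplakins Ia and Ib, encoded by Upk1a and Upk1b, are tetraspanins that cross the membrane several times. Uroplakins II and IIIa, encoded by Upk2 and Upk3a, cross it once. Uroplakin Ia binds uroplakin II, and uroplakin Ib binds uroplakin IIIa or its relative IIIb, encoded by Upk3b, and pairing is needed for most of them to leave the endoplasmic reticulum. Upk3b and Upk1b are also known to be made by mesothelium, the lining of the body cavities. In bulk tissue, fewer cells of a type and less RNA per cell cannot be told apart.

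Promoter sequences from 250 bases before to 50 bases after the gene start were at hand for 3 of the 5 uroplakin genes, from RefSeq with build GRCm38.p6. The promoters of Upk1a and Upk3a are shown because their genes belong to different plaque pairs and had the most and the least negative difference of the 3. Upk1a lies on the minus strand (chr7:30612685-30612984) and Upk3a on the plus strand (chr15:85016891-85017190). Capitals mark matches, on either strand, to the TATA-like motif TATANA and to a motif of GATA factors, AGATAA.
Upk1a: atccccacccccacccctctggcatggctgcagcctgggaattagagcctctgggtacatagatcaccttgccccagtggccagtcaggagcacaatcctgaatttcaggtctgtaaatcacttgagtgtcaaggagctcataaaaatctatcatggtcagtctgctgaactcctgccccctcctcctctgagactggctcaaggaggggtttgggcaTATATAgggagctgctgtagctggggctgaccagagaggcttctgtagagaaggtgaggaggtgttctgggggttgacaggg
Upk3a: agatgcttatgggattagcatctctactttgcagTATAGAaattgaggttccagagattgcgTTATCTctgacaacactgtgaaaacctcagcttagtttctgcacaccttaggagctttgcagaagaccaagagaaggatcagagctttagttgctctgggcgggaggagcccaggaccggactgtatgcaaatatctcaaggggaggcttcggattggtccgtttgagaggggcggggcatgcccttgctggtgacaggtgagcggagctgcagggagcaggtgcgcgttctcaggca
The Upk1a window held a TATANA match that began 32 bases before the start (position -32). The Upk3a window held one at position -216 and an AGATAA match at position -188. Of 32851 promoters of the same length, 24.7% held TATANA and 11.2% AGATAA. The grainyhead motif AACNGGTT, found in 2.09% of promoters, and its palindromic form AACCGGTT, found in 0.146%, had 0 matches in the windows of Upk1a, Upk3a and Upk3b. The window of Upk3bl, a relative of Upk3b that lies next to it, held 1 match to AACNGGTT. A match is a description of letters and not evidence of binding.

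The Grhl3 probe set, read as a check of the labels, had signals of 76.6, 21.5 and 119.7 on null arrays 1 to 3, against 143.3, 132.9 and 125.6 on heterozygous arrays 4 to 6. The groups did not overlap, but the log2 difference of -0.95 did not pass limma's test (adjusted p = 0.765), and the sources used here do not place the probe set relative to the mutation. Median signals of the 6 arrays lay between 58.0 and 72.1. Markers of bladder wall were present on all arrays. The mean log2 level of 12 smooth muscle genes was 13.74 in null and 13.38 in heterozygous bladders, that of 11 stromal genes 11.98 and 12.22, and that of 13 epithelial genes 10.67 and 10.01. Intestinal genes were also present on all 3 null arrays. Of 14 tested intestinal genes 13 rose in null bladders, where 0.184% of all probe sets tested were called higher. The summed signal of all 15 listed genes was 27726 to 47450 on null arrays and 421 to 918 on heterozygous arrays, with Cdx2, a gut transcription factor, at a log2 level of 4.67 in heterozygous bladders where the lowest possible level is 4. The source of these intestinal transcripts and its part in the uroplakin results were not tested. The title of null 1 carries the first number 1 and the other 5 titles carry 2, with no meaning given, so values without null 1 are also given.

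Of the 5 uroplakin genes, 1 (Upk2) passed limma's test as lower in null bladders, where 0.0222% of all probe sets tested did. Every uroplakin probe set had a negative difference. On simulated data of the same size 0% of changes of 1 (log2) were called, so not passing does not show an unchanged level. Upk2 fell to 12.3% of its heterozygous level, an 8.15-fold change. Upk1a, which encodes its binding partner, had a mean difference nearly as large but varied widely among null arrays and did not pass the test. The 7 probe sets of Upk1b, Upk3a and Upk3b had differences between -0.49 and -0.95 on the log2 scale, and 0 of them passed limma's test (2 were lower at an unadjusted p under 0.05, both of Upk1b, where 3.58% of all probe sets tested were lower and 3.24% higher at that level). Without null 1 these 7 differences lay between -1.19 and -0.64 and that of Upk2 was -2.90. All differences are null minus heterozygous on the log2(signal + 16) scale.

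Upk2 signals were 193, 321 and 200.4 on null arrays 1 to 3, against 1899, 1696 and 2496 on heterozygous arrays 4 to 6. Every null array lay far below every heterozygous array, and the null arrays spanned 0.69 log2 units, against 0.55 for the heterozygous ones. The log2 level averaged 7.95 ± 0.38 in Get1 -/- and 10.98 ± 0.28 in Get1 +/- bladders (SD, n = 3 each). The difference was -3.03 (SE 0.30, adjusted p = 0.0077 over all probe sets tested, limma), and its 95% interval ran from 5.06-fold to 13.1-fold lower. An exact permutation test of 3 against 3 arrays gave p = 0.1, the smallest it allows. Only 5 of the 31526 probe sets had a more negative difference, those of Snx31, Fam25c, Fmo5 (2 probe sets) and Wfdc15b, the last of which did not pass the test (-3.07, adjusted p = 0.457, limma). These were named after their values were seen. The call was lost without null 3 (adjusted p = 0.0549) and without heterozygous 6 (adjusted p = 0.0531), where the log2 difference was -2.93 and -2.87.

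Upk1a signals were 649, 120.1 and 282 on null arrays 1 to 3, against 1479, 1804 and 1332 on heterozygous arrays 4 to 6. The groups did not overlap, yet null 1 had more than 5 times the signal of null 2. The null arrays spanned 2.29 log2 units and the heterozygous arrays 0.43. The log2 level averaged 8.23 ± 1.14 in Get1 -/- and 10.59 ± 0.22 in Get1 +/- bladders (SD, n = 3 each). The difference of -2.36 (SE 0.53) did not pass over all probe sets (adjusted p = 0.364, limma, exact permutation p = 0.1), and its interval ran from 2.20-fold to 12.05-fold lower. Without null 1 it was -2.94 (adjusted p = 0.0822), and without null 2, where the signal was lowest, it was -1.79 (adjusted p = 0.486).

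**Figure D1:**
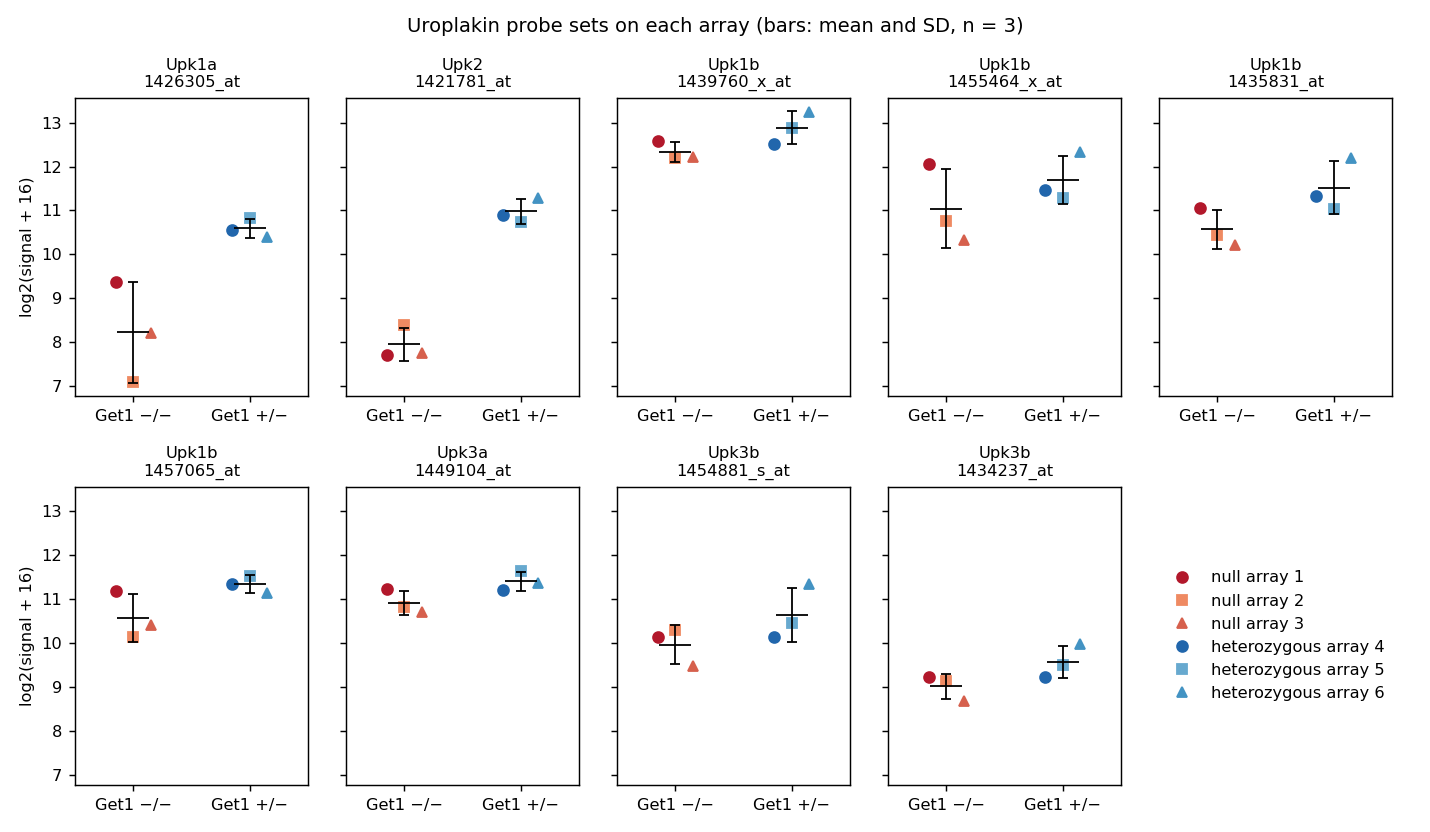
Level of each uroplakin probe set as log2(signal + 16) on the vertical axis, with Get1 -/- arrays on the left and Get1 +/- arrays on the right of each panel; points are arrays, bars the mean and SD over 3 arrays. The null points of Upk2 lie together near 7.95 and those of Upk1a spread over 2.29 log2 units, while the null and heterozygous points of most other probe sets overlap.

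The 4 probe sets of Upk1b, which encodes the tetraspanin of the second pair, pointed the same way. Probe set 1439760_x_at, with the highest signal, read 6129.7, 4675 and 4714 on the null arrays, against 5838, 7562 and 9729 on the heterozygous arrays. Null 1 lay above heterozygous 4, so the groups overlapped, and the difference was -0.55 (SE 0.28, adjusted p = 0.789, limma, exact permutation p = 0.2). Probe set 1435831_at read 2106, 1369.99 and 1173 on the null arrays, against 2563, 2076 and 4666 on the heterozygous arrays, with the most negative difference of the 4 at -0.95 (SE 0.38, adjusted p = 0.7, limma). Heterozygous 5 lay just below null 1 there. Probe set 1457065_at read 2326, 1104 and 1341 on the null arrays, against 2599.7, 2953 and 2238 on the heterozygous arrays (difference -0.77, SE 0.33, adjusted p = 0.732, limma). Here null 1 lay above heterozygous 6 alone. Probe set 1455464_x_at read 4218, 1718 and 1262 on the null arrays, against 2821, 2479.7 and 5098 on the heterozygous arrays (difference -0.65, SE 0.49, adjusted p = 0.862, limma). On this probe set null 1 was higher than heterozygous 4 and 5, and the difference was -1.15 without null 1, -0.29 without null 3 and -0.34 without heterozygous 6. That of 1435831_at was -0.61 without heterozygous 6.

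On null 2 and null 3 all 4 Upk1b probe sets lay below their heterozygous means, and on null 1 this held for 3 of the 4. Relative to the heterozygous mean of each probe set, the 4 deviations ran from -1.21 to -0.69 on null 2, from -1.37 to -0.68 on null 3, and from -0.47 to 0.36 on null 1. On the heterozygous arrays they ran from -0.37 to 0.01 on array 4, from -0.49 to 0.19 on array 5 and from -0.20 to 0.67 on array 6. The 4 group differences spanned 0.40 log2 units, against a median span of 0.62 over the 713 genes with 4 tested probe sets. Of these genes, which were not matched for signal, 25.7% had a smaller span. Probe sets 1435831_at and 1455464_x_at carry the same sequence record in the platform annotation, so they are not independent readings, and names ending in _x_at mark probe sets with probes that can also match other transcripts. The gap between these 2 probe sets was 1.00 on null 1 and 0.10 to 0.32 on the other 5 arrays.

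Upk3a encodes the single-span partner of uroplakin Ib and had 1 probe set. Its signals were 2393, 1788 and 1667 on the null arrays, against 2363, 3192 and 2623 on the heterozygous arrays. Null 1 lay just above heterozygous 4, while null 2 and null 3 lay below all heterozygous arrays. The log2 level averaged 10.92 ± 0.27 in Get1 -/- and 11.41 ± 0.22 in Get1 +/- bladders (SD, n = 3 each). The difference was -0.49 (SE 0.27, adjusted p = 0.811, limma, exact permutation p = 0.2), and its interval reached from 2.15-fold lower to a log2 difference of 0.13 above 0. A fall of the size seen for Upk2 lay outside that interval.

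Upk3b encodes the other partner of uroplakin Ib, and its 2 probe sets, which carry 1 sequence record in the platform annotation, agreed closely. Probe set 1454881_s_at read 1116, 1234 and 693 on the null arrays, against 1113, 1389.9 and 2571 on the heterozygous arrays (difference -0.68, SE 0.38, adjusted p = 0.82, limma, exact permutation p = 0.3). Probe set 1434237_at read 581, 550.1 and 397 on the null arrays, against 589, 706 and 989 on the heterozygous arrays (difference -0.55, SE 0.30, adjusted p = 0.808, limma, exact permutation p = 0.1). The groups overlapped on the first probe set and were narrowly separate on the second. On both, null 3 was the lowest array and heterozygous 6 the highest. Without heterozygous 6 the differences were -0.33 and -0.35, and without null 3 they were -0.43 and -0.39. The group differences of the 2 probe sets lay 0.13 log2 units apart, against a median of 0.29 over the 3747 genes with 2 tested probe sets. Of these genes, which were not matched for signal, 25.8% had a smaller gap. Names ending in _s_at mark probe sets whose probes can all match several transcripts.

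Mesothelial genes were read on the same arrays. Of 11 mesothelial markers 0 passed limma's test (1 higher and 1 lower at an unadjusted p under 0.05), with a median difference of -0.21. Msln, the mesothelial surface protein mesothelin, had a difference of 1.70 (adjusted p = 0.551, limma) and Wt1, a transcription factor of mesothelium, one of -1.30 (adjusted p = 0.708, limma). The summed signal of the 11 genes was 18640.0 to 23322 on null arrays and 21003 to 29999.6 on heterozygous arrays. Most of this sum came from 1 gene, Sulf1. It read 15215, 18747 and 17157 on the null arrays, against 17272, 23747 and 18430 on the heterozygous arrays. The mean log2 level of the list was 8.60, 8.82 and 8.63 on the null arrays, against 8.20, 9.06 and 9.06 on the heterozygous arrays. The part of mesothelium in the Upk3b values was not tested. Upk3bl, whose probe set is separate, had a difference of 0.79 in the other direction (adjusted p = 0.749, limma), with signals of 487, 210.4 and 275 on the null arrays, against 128, 226 and 169 on the heterozygous arrays. Null 2 lay below heterozygous 5, so these groups overlapped.

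Read together, all 9 uroplakin probe sets had a negative difference, where 51.7% of all probe sets tested did. Of the 9 probe sets, 1 was called lower at an adjusted p under 0.05, against 0.0222% of all probe sets tested. At an unadjusted p under 0.05 there were 4 lower (Upk1a, Upk2 and 2 of Upk1b), against 3.58%. Groups did not overlap, with null lower, for 3 (Upk1a, Upk2 and 1 of Upk3b), against 6.41%. The median difference was -0.68, and that over all probe sets tested -0.01. The 9 probe sets read 5 genes, so these counts are not of independent values.

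**Figure D2:**
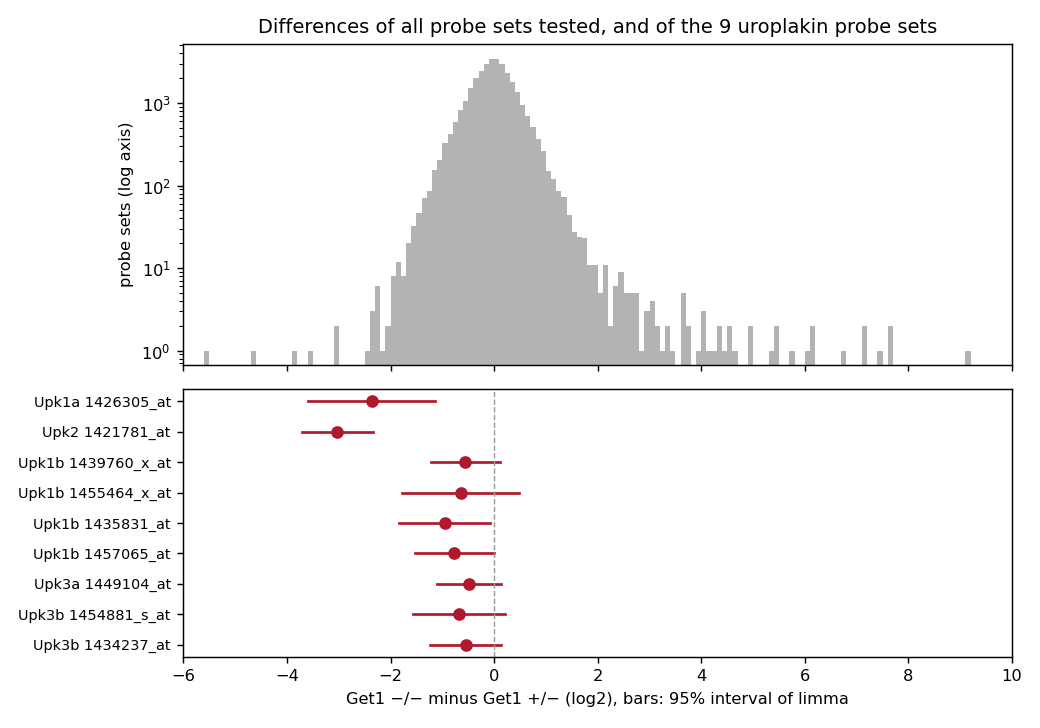
Top, number of probe sets (log axis) by their null minus heterozygous difference on the log2 scale for the 31526 tested; bottom, the difference of each uroplakin probe set with its 95% interval from limma. Upk2 at -3.03 and Upk1a at -2.36 lie in the sparse left tail. The other 7 lie between -0.95 and -0.49, where 2.54% to 12.8% of all probe sets tested had a lower difference.

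Ratios between plaque partners were formed on each array as the log2 level of one minus that of the other. Probe sets have no common scale, so only changes of a ratio between arrays are read. Upk1a minus Upk2 was 1.67, -1.31 and 0.46 on null arrays 1 to 3, against -0.36, 0.09 and -0.90 on heterozygous arrays 4 to 6. The null arrays fell on both sides of the heterozygous ones and spanned 2.98 log2 units, against 0.99. The mean ratio was 0.27 ± 1.497 in Get1 -/- and -0.39 ± 0.49 in Get1 +/- bladders (SD, n = 3 each), a change of 0.66 (exact permutation p = 0.6). That change was -0.03 without null 1 and 1.45 without null 2.

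Most of the spread came from Upk1a, which spanned 2.29 log2 units on the null arrays, against 0.69 for Upk2. The partners also stood in opposite order there, though Upk2 differed little between null 1 and null 3 (7.71 and 7.76). Null 1 had the highest Upk1a and the lowest Upk2 level of the 3, and null 2 the lowest Upk1a and the highest Upk2 level. Relative to the heterozygous means, Upk1a was at -1.21, -3.50 and -2.37 and Upk2 at -3.27, -2.59 and -3.22 on null arrays 1 to 3. With 3 arrays this is a description.

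The ratio of the second pair changed little. Upk1b (1439760_x_at) minus Upk3a was 1.35, 1.38 and 1.49 on the null arrays, against 1.30, 1.24 and 1.88 on the heterozygous arrays. The null arrays lay inside the heterozygous range and spanned 0.14 log2 units. The change between groups was -0.07 (exact permutation p = 1). With the other 3 Upk1b probe sets the change lay between -0.46 and -0.16, the null arrays spanned 0.32 to 1.21 log2 units, and the groups overlapped each time.

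**Figure D3:**
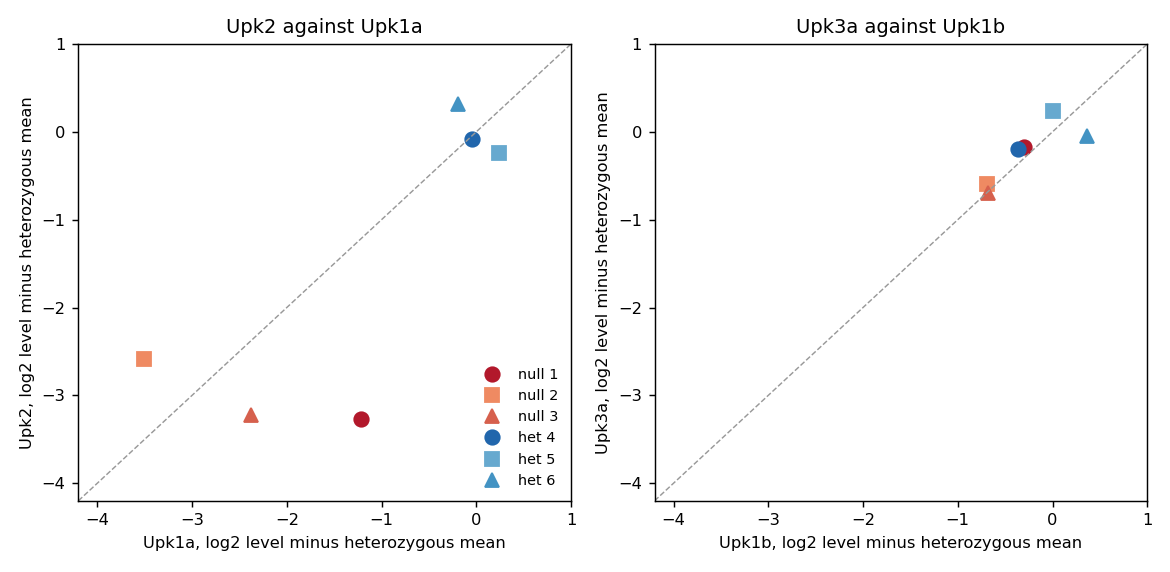
Deviation of each array from the heterozygous mean on the log2 scale for Upk2 against Upk1a (left) and Upk3a against Upk1b (right); the dashed line marks equal deviations. Null arrays 1 and 2 lie on opposite sides of the line for the first pair, and all 6 arrays lie close to it for the second.

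Across the pairs, Upk2 and Upk1a were low relative to the rest of the family. Upk2 minus Upk3a was -3.53, -2.42 and -2.96 on the null arrays, against -0.31, -0.91 and -0.07 on the heterozygous arrays. The groups were well separated, with a change of -2.54 (exact permutation p = 0.1, the smallest possible). Upk2 minus Upk1b changed by -2.47 to -2.08 over the 4 Upk1b probe sets, and Upk2 minus Upk3b by -2.48 and -2.35 over the 2 Upk3b probe sets, with no overlap in any of these 6 combinations. Upk1a minus Upk3a changed by -1.88 and Upk1a minus Upk1b by -1.81 to -1.41, and for Upk1a minus Upk1b the groups overlapped with 1 of the 4 Upk1b probe sets. Upk1a minus Upk3b changed by -1.69 with the brighter Upk3b probe set, where null 1 lay above heterozygous 6, and by -1.81 with the other.

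Over the 10 pairs of uroplakin genes, each read by its brightest probe set, groups did not overlap in 5, and these were 5 of the 6 pairs that join Upk1a or Upk2 with Upk1b, Upk3a or Upk3b. Upk1a minus Upk2 overlapped. The 10 pairs share 5 genes, so they are not independent, and these 5 follow from the lower Upk1a and Upk2 levels given above. Adjusted over the 10 pairs (Benjamini-Hochberg), the smallest exact permutation p was 0.2, so 0 pairs could pass a threshold of 0.05 in this design. Upk1b minus Upk3b and Upk3a minus Upk3b changed by 0.12 and 0.19 (exact permutation p = 0.6 each).

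**Figure D4:**
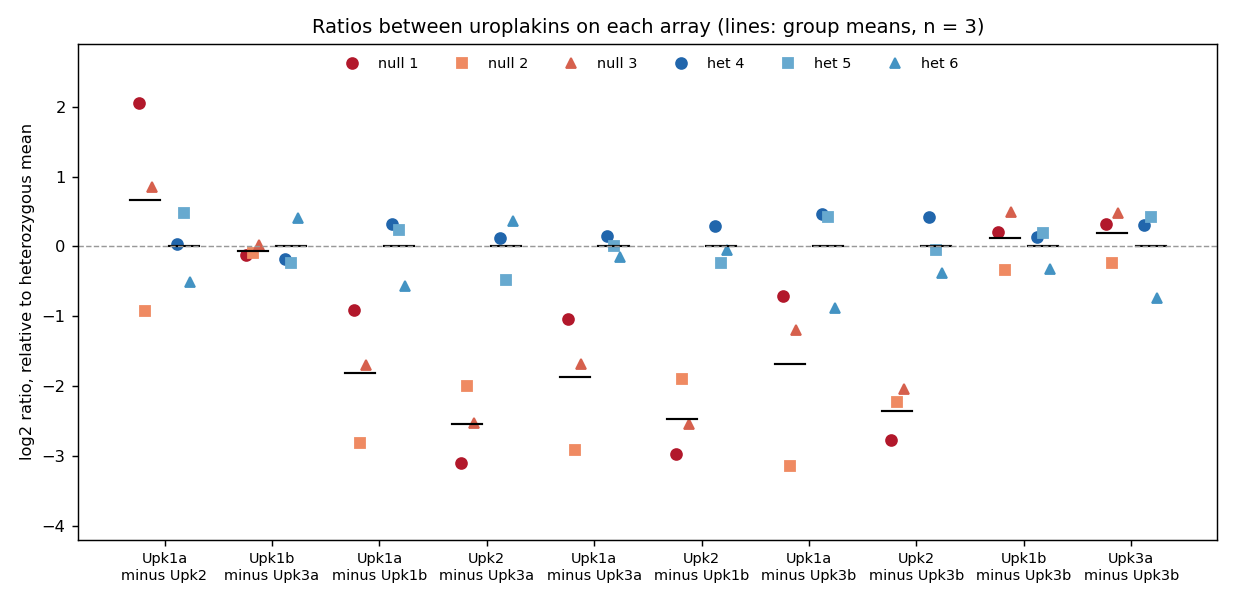
Log2 ratio of each pair of uroplakin genes on each array, relative to the heterozygous mean of that ratio; null arrays stand left and heterozygous arrays right in each pair, and lines are group means over 3 arrays. Pairs that set Upk2 or Upk1a against Upk1b, Upk3a or Upk3b have null means between -2.54 and -1.69, and pairs within the other genes lie near 0.

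Levels were also set against epithelial genes of the same array, as an addition made after the data were seen. The mean of 13 epithelial keratins and adhesion genes was higher on all null arrays (10.71, 10.47 and 10.83, against 9.65, 10.19 and 10.20 on the heterozygous arrays), with 0 of 13 genes past limma's test (7 higher at an unadjusted p under 0.05, against 3.24% of all probe sets tested) and a median difference of 0.95. Krt19, a simple epithelial keratin, had a difference of 1.15 (adjusted p = 0.499, limma) and the tight junction gene Cldn7 one of 1.07 (adjusted p = 0.425, limma). Not all genes of the list were higher, with 11 differences above 0 and 2 below. Those below were Krt18 at -0.50 and Cldn4 at -0.09 (adjusted p = 0.779 and 0.989, limma). Krt8 had a difference of 0.16 (adjusted p = 0.961, limma). The scaling lowers the difference of every probe set by the same 0.66, so it cannot change their order. Relative to this mean, Upk2 had a null minus heterozygous value of -3.69, Upk1a of -3.02, Upk3a of -1.15, and the probe sets of Upk1b and Upk3b of -1.61 to -1.21. Groups did not overlap for 8 of the 9 probe sets, the exception being 1455464_x_at of Upk1b, where with the same scaling null was lower without overlap for 37.7% of all probe sets tested. Genes of this list are also made by gut epithelium, and the intestinal genes were higher on the same arrays.

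The basal urothelial list, which holds Krt5, Krt14 and other genes of the basal cell layer, gave smaller shifts. Of its 13 tested genes 0 passed limma's test (3 higher and 1 lower at an unadjusted p under 0.05), with a median difference of 0.40. Lama3, a laminin chain, had a difference of 1.23 (adjusted p = 0.291, limma), Shh, an epithelial signal to the stroma, 1.00 (adjusted p = 0.61, limma) and Ngfr, a nerve growth factor receptor of basal cells, -0.80 (adjusted p = 0.663, limma). Relative to the mean of this list, which lowers every difference by 0.34, Upk2 was at -3.37, Upk1a at -2.70, Upk1b at -1.29 to -0.90, Upk3a at -0.83 and Upk3b at -1.02 and -0.89. Groups did not overlap for 8 of 9 probe sets, where with this scaling 18.7% of all probe sets tested were lower without overlap.

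**Figure D5:**
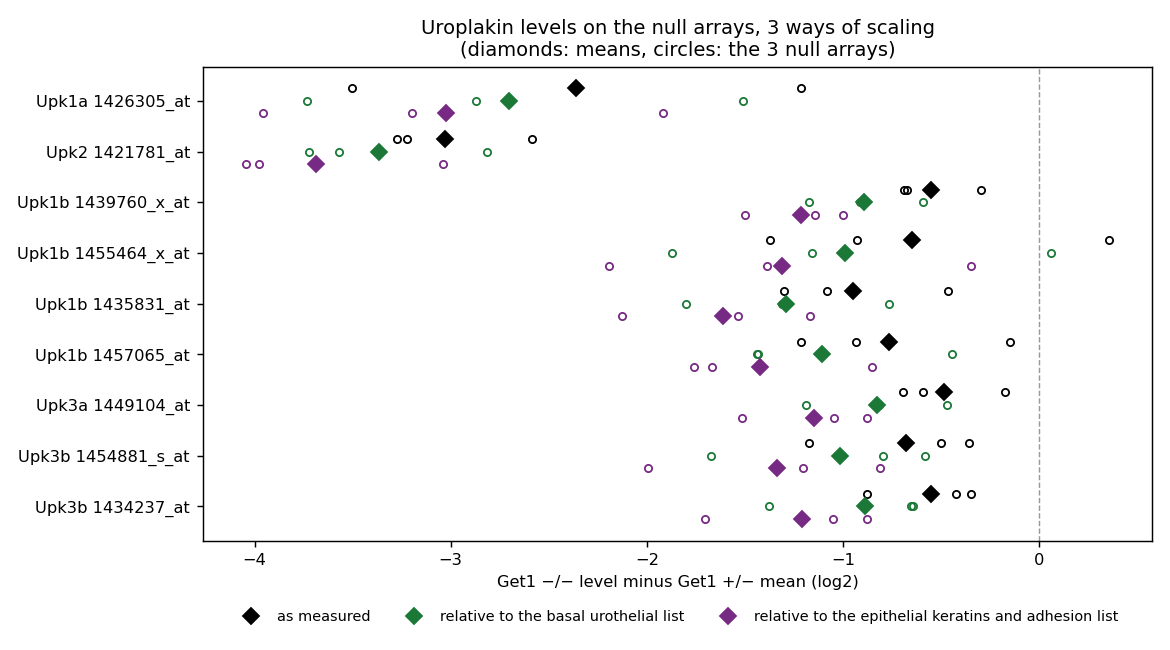
Null minus heterozygous level (log2) of each uroplakin probe set as measured, relative to 13 basal urothelial genes and relative to 13 epithelial genes on the same array; diamonds are means and circles the 3 null arrays. Scaling to a list moved all 9 means by 1 common amount, for Upk3a to -0.83 and -1.15.

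Other genes of umbrella cells mostly did not pass. Of 19 genes of their surface and vesicle traffic 1 passed limma's test as lower, against 0.0222% of all probe sets tested. At an unadjusted p under 0.05, 3 were lower and 0 higher, against 3.58% and 3.24%. Mean log2 levels of all 19 were 9.23, 9.22 and 9.40 on the null arrays, against 9.58, 9.71 and 9.79 on the heterozygous arrays. These groups did not overlap (difference -0.41, exact permutation p = 0.1). The gene that passed was Snx31, a sorting nexin that binds uroplakins. Its signals were 1.81, 6.08 and 20.6 on the null arrays, against 812, 1531 and 1218 on the heterozygous arrays (difference -5.58, adjusted p = 0.0012, limma). Psca, a surface antigen, had a difference of -2.25 (adjusted p = 0.11, limma). Rab27b, a small GTPase on the vesicles that carry uroplakins, had -0.71 and Mal, a raft protein of apical delivery, 0.67 (adjusted p = 0.693 and 0.736, limma). The median of the list was -0.12, with 12 differences below 0 and 7 above. Snx31 and Psca had the lowest differences and made up most of the lower list mean. Of 20 other tetraspanins, relatives of Upk1a and Upk1b, 0 passed limma's test (3 higher and 1 lower at an unadjusted p under 0.05), with a median of 0.07, and Tspan15, Tspan1 and Tspan8 had differences of 1.35, 1.22 and 1.01 (adjusted p = 0.26, 0.403 and 0.631, limma).

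Transcription factors of urothelium were not lower as a list. Of 18 genes 0 passed limma's test (2 higher at an unadjusted p under 0.05), with a median of 0.32. Ehf and Foxa1, factors of epithelial differentiation, had differences of 0.80 and 0.69 (adjusted p = 0.732 and 0.715, limma). Grhl1 and Grhl2, the relatives of Grhl3, had differences of -0.27 and 0.53 (adjusted p = 0.939 and 0.82, limma). Smooth muscle and stromal lists had 0 of 12 and 0 of 11 genes past limma's test (at an unadjusted p under 0.05, 2 smooth muscle genes were higher and 2 stromal genes lower), with medians of 0.31 and -0.15. In smooth muscle Des had a difference of 0.80, Synpo2 0.73 and Cnn1 0.58, and in stroma Fbln2 had -1.004, Dpt -0.76 and Pdgfra -0.46.

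The genes whose profile over the 6 arrays was most like that of Upk2, by the root mean square distance of centred log2 levels, were Fmo5 (0.45), Cntnap2 (0.45), Sprr1a (0.65), Spata33 (0.65) and Adh1 (0.66). Fmo5 encodes a flavin monooxygenase, Cntnap2 a neurexin-like adhesion protein, Sprr1a a precursor of the cornified envelope and Adh1 an alcohol dehydrogenase. Those most like Upk1a were Acer2 (0.46), a ceramidase, Dclk2 (0.49), Gle1 (0.51), 3830417A13Rik (0.62) and Psca (0.63). The distance between Upk1a and Upk2 themselves was 0.97, which placed Upk1a at rank 116 in likeness to Upk2, counted over probe sets and not over genes. The genes most like Upk1a were chosen by profile, so a shared low level on null 2 is not a separate result. Psca was at 6.86 there, against 7.50 and 8.17 on null 1 and null 3, while Upk1a was higher on null 1 than on null 3.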

How the data were processed

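RNA of 6 bladder samples had been measured on expression arrays. The deposited table gives an intensity per probe set, on a linear scale. Per the submitters' processing notes the authors used Affymetrix Expression Console 1.1 and PLIER 2.0, with no role or order stated, and the sources used here state neither background correction nor normalization. The platform annotation gave 1 symbol for 34945 of 45037 probe sets, several for 932, and left 9160 unnamed here. The probes come with no genome build, so positions are printed for the RefSeq promoter windows alone.

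Values were taken as log2(value + 16), so folds of dim genes are understated. The 64 control probe sets and the 30% of probe sets with the lowest mean (log2 under 5.23) were left out. Every remaining probe set was a feature in limma 3.58.1 (R 4.3.3; lmFit and eBayes, no trend, two-sided), with Benjamini-Hochberg adjustment over 31526 probe sets and a threshold of 0.05. Reading each of 18193 genes by its brightest probe set, with the 30% filter taken over genes, gave smaller adjusted p-values of 0.0022 (Upk2) and 0.199 (Upk1a). Single values and ratios were tested by exact two-sided permutation over arrays (scipy 1.17.1), whose smallest p is 0.1. The number of arrays limits the precision. On simulated data of the same 3 against 3 arrays and 31526 probe sets, 0% of changes of 1, 41.0% of changes of 2, 65.0% of changes of 3 and 82.9% of changes of 4 (log2) were called.

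The members, the 9 gene lists with 136 entries and the tests were chosen with earlier results of these data known. Each listed gene was read by its brightest probe set. Named are all uroplakin probe sets, Upk3bl, the Grhl genes, called list genes with up to 3 others of smallest p per list (the intestine list by example), and the 5 genes most like Upk2 and Upk1a. Sulf1, Krt8, Krt18 and Cldn4 were named in addition, after their values were seen. Alternatives were offsets of 1 and 64, no filter or a 50% filter, quantile normalization, median centring, array weights, trended robust fitting, 1 feature per gene, and leaving out each array. Scaling to 2 gene lists was added after the data were seen.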

Additional observations from a re-analysis of the deposited data

How the results depend on the processing

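Upk2 stayed lower in all 16 alternative fits, with log2 differences from -3.25 to -2.80, and passed in 14 of them. Its adjusted p was above the threshold at 0.0549 without null 3 (-2.93) and at 0.0531 without heterozygous 6 (-2.87), so the count of uroplakin probe sets called lower ranged from 0 to 1 when 1 array was left out. With 1 array left out the Upk2 difference ranged from -3.25 to -2.87. An offset of 1 gave an adjusted p of 0.0463 and trended robust fitting 1.7e-04. Upk1a passed in 0 of 16 fits, with adjusted p from 0.0704 (offset of 64) to 0.693, and its difference ranged from -2.94 to -1.79 when 1 array was left out. The other 7 probe sets passed in 0 fits and kept a negative difference in each, from -1.20 to -0.29 when 1 array was left out. The change of the ratio of Upk1a to Upk2 ranged from -0.03 to 1.45 when 1 array was left out. Scaling to the epithelial list, which has no limma test, moved all 9 values by the same amount. They became -3.69 (Upk2), -3.02 (Upk1a), -1.15 (Upk3a), and -1.34 and -1.21 (Upk3b). For Upk1b they became -1.21, -1.31, -1.61 and -1.43 (probe sets 1439760_x_at, 1455464_x_at, 1435831_at and 1457065_at). The basal list also moved all 9 by a common, smaller amount, for Upk3a to -0.83. The change of the ratio of Upk1b to Upk3a ranged from -0.19 to 0.14 and was -0.46 with probe set 1435831_at of Upk1b. Over all probe sets, 28 to 84 were called higher and 3 to 12 lower, against 58 and 7 as reported. With an offset of 1, 4 were lower and 28 higher. With an offset of 64, 11 were lower, and with trended robust fitting 12. Without null 3 the counts were 34 higher and 3 lower, without heterozygous 6 they were 31 and 3, and without null 2 they were 35 and 4. Without heterozygous 4, 4 were lower, and without heterozygous 5, 36 were higher. The cause of these shifts was not tested. The umbrella cell list had 2 lower genes with an offset of 64 and with trended robust fitting, and the intestine list 7 higher with an offset of 1. No paired analysis was possible because the groups share no replicate number.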
